A study of Mus musculus with 16 samples.

Results

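The RNA of whole testes was compared with that of whole ovaries in conventionally raised mice, which carry a gut microbiota. The comparison used 8 of the 16 libraries of the study, ovary libraries 1 to 4 and testis libraries 1 to 4, taken by their column names in the count table and by no measured value. All 8 came from C57BL/6j mice aged 15 to 16 weeks that fed ad libitum and were sampled between ZT 2 and 4, hours counted from lights on. The ovaries came from females and the testes from males, so organ and sex cannot be told apart. No label names an altered gene, a drug, a batch or a stage of the ovarian cycle. The labels do not state whether each library is a different mouse. The p-values therefore reflect the spread among these libraries only, part of which may be technical. The other 8 libraries, 5 ovaries and 3 testes of germ-free mice, were used to repeat the contrast, to test whether it differed, and in 1 alternative fit.

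In the adult testis, spermatogonia divide in the seminiferous tubules, enter meiosis and become spermatids, which pack their DNA with protamines and build an acrosome and a flagellum. Sertoli cells nurse them inside the tubule and Leydig cells between the tubules make androgen. The ovary holds a finite store of oocytes paused in meiosis, each enclosed by granulosa cells; theca cells around growing follicles make the androgen that granulosa cells turn into oestrogen, and the corpus luteum left by ovulation makes progesterone.

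Library totals ran from 12912251 to 15141027 counts in the ovaries and from 25880591 to 28266867 in the testes. Levels are given as CPM, the count per 1000000 of the TMM-scaled library size, in the order of libraries 1 to 4. The ovaries varied more among themselves, with a biological coefficient of variation of 14.9% against 4.52% in the testes, and the first principal component, which held 97.7% of the variance, separated the organs. Testis library 1 held traces of ovary genes: 6 genes of high ovary level that had 3 or fewer counts in the other testes together had 65 counts there, 0.323% of their ovary level. The same choice found 1 gene for each other testis, with 0 counts, which is too few to compare. In the ovaries, 365 to 371 genes of high testis level had 217, 195, 213 and 149 counts. These were 0.00928% to 0.0138% of their testis level, and the source of the traces was not tested. Large fold changes of testis genes can rest on ovary counts as few as these. Fitted log2 differences that rest on such traces are given without the library in question where that moved them by over 1.5 times. Ratios against 1 to 3 counts include that library and have a counting interval.

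Nearly every gene differed between the organs. Of 19962 genes of chromosomes 1 to 19 tested with edgeR's quasi-likelihood test, 91.1% were called at a Benjamini-Hochberg adjusted p under 0.05, with 9509 (47.6%) higher in the testis and 8668 (43.4%) higher in the ovary. The 4 values of one organ lay clear of those of the other for 88.9% of the genes. A second test therefore asked which differences exceeded 4-fold: 5077 genes (25.4%) were higher in the testis and 3271 (16.4%) higher in the ovary by that measure, 41.8% in all. The median log2 difference, testis minus ovary as everywhere below, was 0.13 and the median size 1.82. The split of the calls depended on the scaling: with library totals alone, which moved the median by -0.81, the testis-higher share of the calls was 39.3% in place of 52.3%, with 7277 genes higher in the testis and 11237 in the ovary. Among long non-coding genes, 52.5% were higher in the testis beyond 4-fold and 10.9% in the ovary, against 22.4% and 18.0% of protein-coding genes. The plot of all levels shows a column of genes at or near 0 in the ovary and high in the testis. There were 351 genes without a count in any ovary and with a testis mean of at least 5 CPM, and 8 of the reverse kind. The traces in testis library 1 limit the second number. Calb1, Sfrp4, Ltf and Pgr, described below, had counts in that testis alone and so fall outside the 8.

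**Figure D1:**
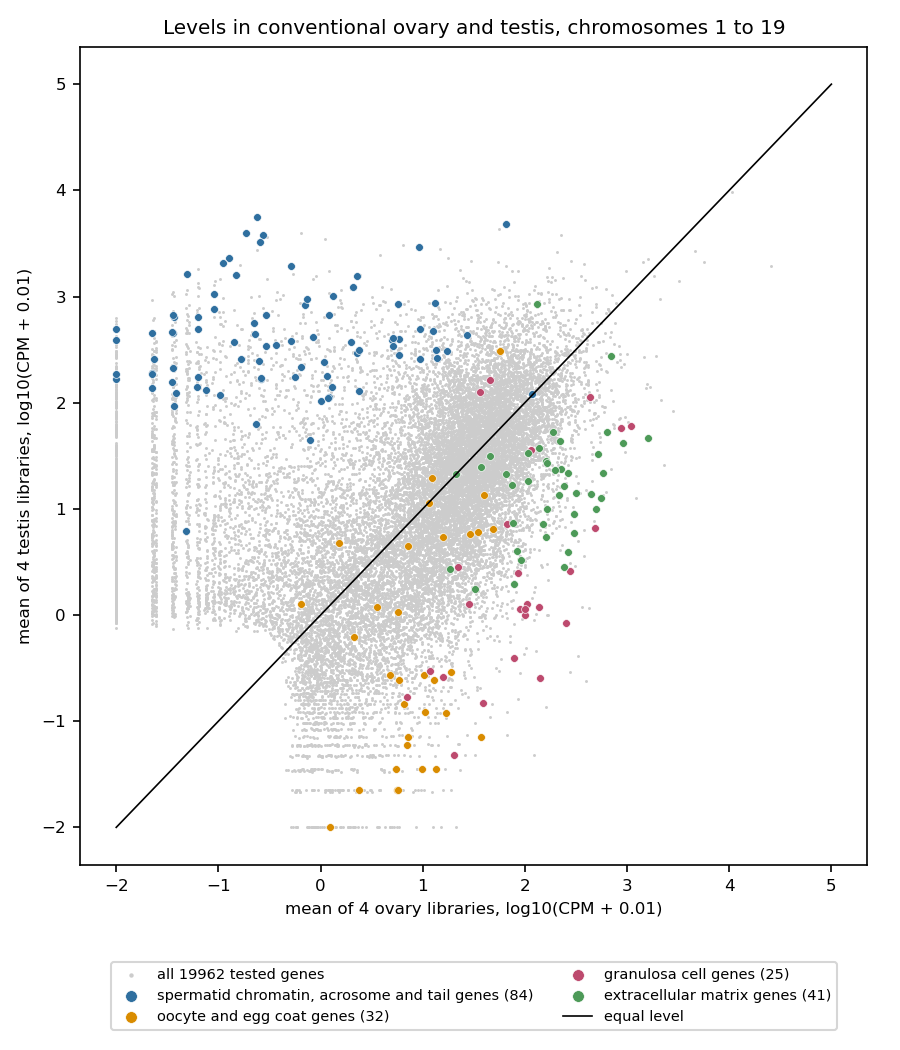
Mean level of each of the 19962 tested genes in 4 ovary libraries (x axis) and 4 testis libraries (y axis), as log10 of CPM plus 0.01, with the members of 6 gene lists coloured (the 3 sperm lists share a colour) and the line of equal level. Spermatid chromatin, acrosome and tail genes lie above the line, except 1 on it, and most granulosa, matrix and oocyte genes lie below it.

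Predicted or unnamed genes were passed over in the ranking that follows, 2 on the testis side and 4 on the ovary side. The 10 named genes with the largest fitted testis-higher differences had no count in 4 ovaries, and most are known from spermatids and sperm. A fitted value against 0 counts depends on the prior count, so this order is that of the fit, and genes with a few ovary counts described below (Akap3, Gapdhs) had larger ratios than some of the bounds here. Smcp, a protein of the sperm mitochondrial sheath, stood at 469, 504, 528 and 485 CPM in the testes, at least 12484-fold higher when 3 counts over the 4 ovaries are taken as the floor. Ccdc54, with 605 to 646 CPM, was at least 15830.2-fold higher. Lypd4 was at 580.3 to 601 CPM and Hmgb4, an HMG-box protein, at 526 to 573 CPM. Dnajb8, a co-chaperone, Ubqlnl, Ropn1 of the fibrous sheath, Slc22a16, a carnitine transporter, Lelp1 and Pdilt, a disulphide isomerase of the testis, completed the 10. The last, Pdilt, was at 279 to 317 CPM, at least 7638-fold higher. These were the first named genes of 2334 called beyond 4-fold with a testis mean of at least 50 CPM, those passed over included. In the ovary 761 genes met the same condition.

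Among named genes, the ovary's largest differences were in genes with a trace of counts in the testis. Calb1, a calcium-binding protein, was at 215, 88.0, 90.4 and 94.3 CPM in the ovaries and had 3 counts in testis library 1 and 0 in the other testes, a 3347-fold (95% counting interval 1145 to 16234) difference. Sfrp4, a secreted Wnt antagonist of luteal cells, was at 554, 245, 242 and 557 CPM in the ovaries and 0.914, 0, 0 and 0 CPM in the testes. Ltf, lactoferrin, was at 339, 322, 231 and 220.3 CPM in the ovaries and 1.12, 0, 0 and 0 CPM in the testes. Each of these genes was present in testis library 1 alone among the testes, and ovary library 1 held the most Calb1. The log2 differences were -10.77 for Sfrp4 and -9.97 for Ltf. Without testis library 1, where every remaining testis is at 0, the fitted values were -15.91 and -15.40; these depend on the prior count of the fit and are no bounds. Bcat1, which starts the breakdown of branched amino acids, was at 288, 404, 366 and 407 CPM in the ovaries and 2.28, 0.706, 0.735 and 0.983 CPM in the testes (log2 -8.28, SE 0.289, adjusted p = 2.44e-08). Ehf, an ETS factor of epithelia, was at 127 to 134 CPM in the ovaries and 0.252 to 0.588 CPM in the testes (log2 -8.13), and Slc14a1, a urea transporter, at 73.3 to 98.2 and 0.151 to 0.457 CPM (log2 -8.32). The remaining genes of the 10 (Ptgfr, Pgr, Inhba and Nr5a2) are described with their lists. In the GRCm38 annotation Smcp (ENSMUSG00000074435) on chromosome 3 from 92583867 to 92588997 and Ccdc54 (ENSMUSG00000050685) on chromosome 16 from 50589857 to 50591154 lead the named genes of the testis side. Calb1 (ENSMUSG00000028222) on chromosome 4 from 15881264 to 15908064 and Sfrp4 (ENSMUSG00000021319) on chromosome 13 from 19623104 to 19632994 lead the named genes of the ovary side.

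As shares of all counts, the ovary libraries were led by non-coding RNA: Malat1 took 3.35%, 7SK 1.41%, the RNase P RNA 0.753% and the RNase MRP RNA 0.424%, with the elongation factor gene Eef1a1 at 0.606%. In the testis 7SK took 0.722%, followed by Prm2 (0.419%), Odf2, an outer dense fibre protein of the tail (0.368%), the anchoring protein Akap12 (0.324%) and Ldhc, the lactate dehydrogenase of germ cells (0.302%). Malat1 stood at 25996, 23138, 24422 and 27982 CPM in the ovaries and 1884, 1859, 1959.5 and 2019.6 CPM in the testes (log2 -3.72). Akap12 had the opposite order, with 49.6 to 64.1 CPM in the ovaries and 4230.5 to 4377 CPM in the testes (log2 6.25).

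**Figure D2:**
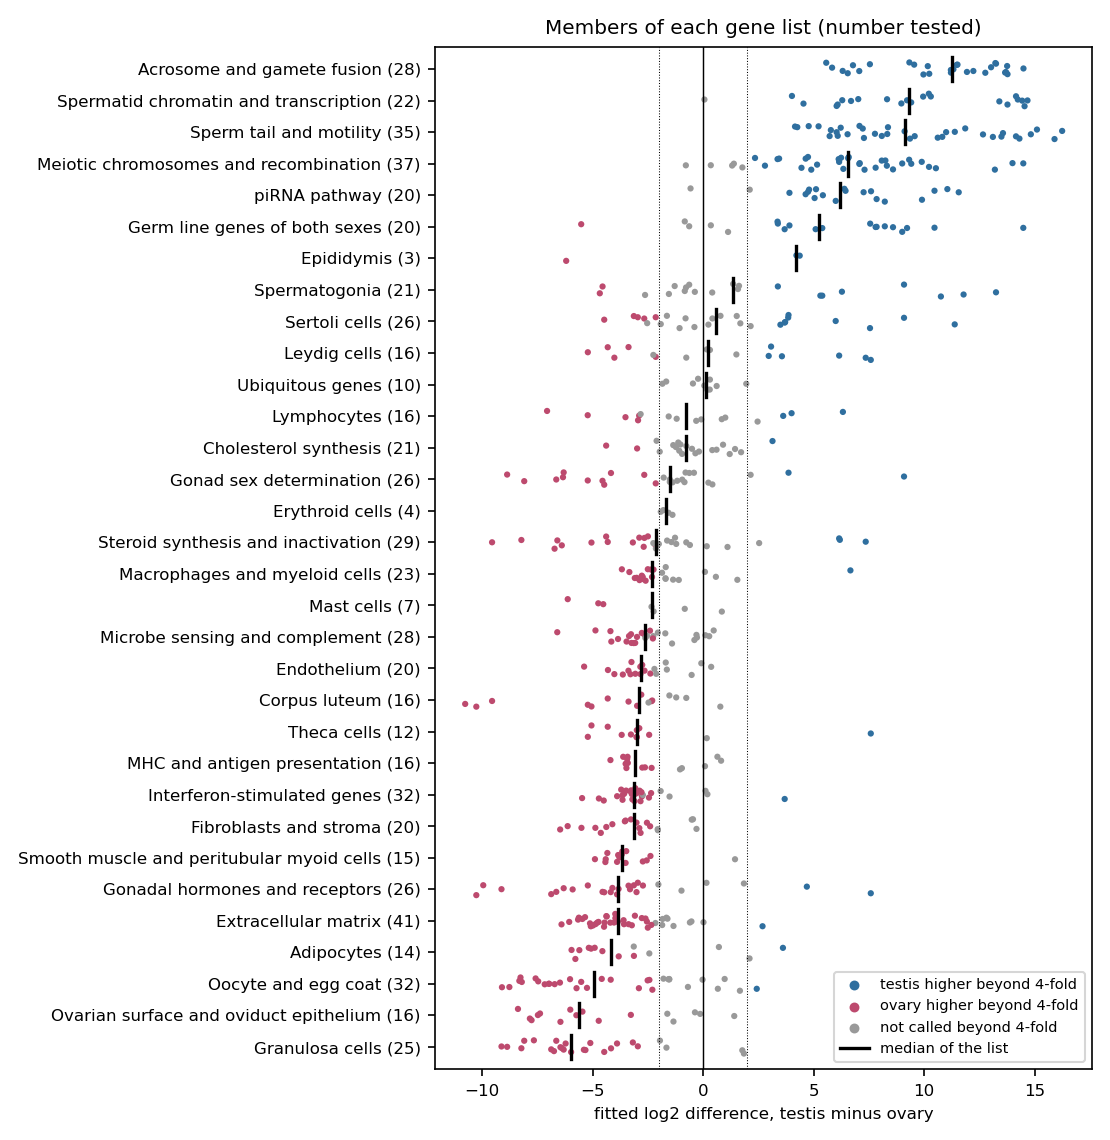
Fitted log2 difference (testis minus ovary) of every tested member of the 32 gene lists, 1 row per list with the number tested in brackets. Blue and red points passed the 4-fold test, grey points did not, the bar marks the list's median and dotted lines mark 4-fold. The acrosome, spermatid, tail, meiotic and piRNA lists lie to the right, with medians from 6.19 to 11.27, and the granulosa, epithelial and oocyte lists to the left, with medians from -4.93 to -5.98.

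Most genes known to steer the fetal gonad towards testis or ovary were higher in the adult ovary. Of 26 tested members of this sex determination list, 21 were higher in the ovary and 3 in the testis, where 43.4% and 47.6% of all tested genes were called. Beyond 4-fold the counts were 11 and 2, against 16.4% and 25.4% of all genes, and the median log2 difference was -1.51. The count of every list below is to be read beside these shares of all genes. In bulk tissue such a difference does not tell fewer cells of a type from less RNA per cell, here and in all that follows. Foxl2, the transcription factor that keeps granulosa identity, was at 24.1, 20.8, 16.7 and 19.7 CPM in the ovaries and had 3 counts in testis library 1 and none in the other testes, a 554-fold (95% counting interval 189 to 2689) difference. Wnt4, an ovary-promoting ligand, was at 35.8, 39.8, 34.5 and 45.7 CPM in the ovaries and 0.0508, 0.303, 0.147 and 0.0468 CPM in the testes (log2 -8.10, and -8.76 without testis library 2). Rspo1, which amplifies Wnt signals, was at 9.55, 13.2, 11.1 and 10.1 CPM in the ovaries and 0.558, 0.252, 0.931 and 0.656 CPM in the testes (log2 -4.18, SE 0.244, adjusted p = 1.80e-09). All 4 ovaries were above all 4 testes for the 3 genes.

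On the testis side the picture was mixed. Dmrt1, which holds the male fate in Sertoli cells and spermatogonia, was at 25.2, 23.9, 25.7 and 25.8 CPM in the testes and had 3 counts over the 4 ovaries, a 632-fold (95% counting interval 216 to 3069) difference. Sox8, a relative of Sox9, was at 1.46, 0.759, 0.861 and 0.873 CPM in the ovaries and 15.2, 12.7, 13.5 and 16.7 CPM in the testes (log2 3.86, SE 0.185, adjusted p = 2.09e-10). Sox9 itself, the main switch of Sertoli fate, was not called, at 3.07, 8.65, 4.13 and 5.46 CPM in the ovaries and 6.80, 6.86, 6.23 and 8.57 CPM in the testes, with overlapping groups (log2 0.42, SE 0.272, adjusted p = 0.168). It was called at 0.76 without ovary library 2, and was at -0.39 with library totals as the scaling. Amh, the hormone that removes the female ducts in the male fetus and is made by granulosa cells of growing follicles in the adult, was at 26.9, 21.6, 32.8 and 32.4 CPM in the ovaries and 1.07, 1.16, 1.47 and 1.36 CPM in the testes (log2 -4.48, SE 0.17, adjusted p = 1.78e-11). Fst, the activin-binding follistatin, was at 73.4 to 120.1 and 0.706 to 1.37 CPM (log2 -6.65). Bmp2, a growth factor of granulosa cells, was at 8.49 to 14.8 and 0 to 0.343 CPM (log2 -6.35, and -7.29 without testis library 3).

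Spermatogonia, the dividing germ cells at the tubule wall, gave a split list: of 25 members 21 passed the filter, 11 were higher in the testis and 7 in the ovary (8 and 2 beyond 4-fold; median 1.35). The testis share was 52.4% and the ovary share 33.3%, against 47.6% and 43.4% of all genes; beyond 4-fold they were 38.1% and 9.52%, against 25.4% and 16.4%. Stra8, the retinoic acid target that starts meiosis, was at 10.1, 10.2, 12.2 and 11.7 CPM in the testes and at 0 in every ovary, at least 278-fold higher. Dmrtb1, a relative of Dmrt1, was at 0.302, 0.101, 0.115 and 0.0546 CPM in the ovaries and 524, 535, 536 and 555 CPM in the testes (log2 11.79, and 12.44 without ovary library 1). Tex101, a surface glycoprotein of germ cells, was at 187 to 195 CPM in the testes and had 1 count, in ovary library 1, a 14463-fold (95% counting interval 2595 to 571278) difference. The 3 genes thus had few or no ovary counts.

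The 7 members higher in the ovary included genes that somatic cells also use. Foxo1, a transcription factor of spermatogonia and of granulosa cells, was at 178, 173, 198 and 204 CPM in the ovaries and 8.53, 6.31, 6.81 and 7.68 CPM in the testes (log2 -4.68, SE 0.0931, adjusted p = 3.00e-14). The cyclin gene Ccnd2 was at 175, 158, 141 and 161 CPM in the ovaries and 7.56, 5.70, 6.62 and 7.02 CPM in the testes (log2 -4.56, SE 0.092, adjusted p = 2.71e-14). Kit, the receptor of spermatogonia and oocytes, was at 42.4, 52.8, 58.6 and 57.6 CPM in the ovaries and 26.7, 30.6, 31.9 and 29.2 CPM in the testes (log2 -0.84, SE 0.0984, adjusted p = 3.72e-06). Zbtb16, a repressor of spermatogonial differentiation, was at 9.59 to 12.1 CPM in the ovaries and 3.81 to 5.24 CPM in the testes (log2 -1.29). None of these 4 had overlapping groups. Gfra1, the GDNF co-receptor of the stem cells, did, at 3.72, 23.6, 16.5 and 21.7 CPM in the ovaries and 5.79, 5.40, 5.39 and 5.67 CPM in the testes (log2 -1.55, SE 0.522, adjusted p = 0.0242). Ovary library 1 was below the testes. Its call was lost without ovary library 2 (-1.32), without ovary library 4 (-1.39), without any single testis library (-1.54 to -1.50), with limma-voom (-1.23) and with the replicate block (-1.37).

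Meiosis gave a near-complete testis list. Of 37 tested genes of meiotic chromosomes and recombination, 35 were higher in the testis, 32 beyond 4-fold, and 1 in the ovary. The shares of all genes were 47.6%, 25.4% and 43.4% in the same order. The median was 6.56 and the summed levels were 206 to 255 CPM in the ovaries and 7032 to 7157 CPM in the testes. Sycp1, the transverse filament of the synaptonemal complex, was at 0.653, 0.202, 0.402 and 0.327 CPM in the ovaries and 401, 379, 377 and 379 CPM in the testes (log2 9.89, SE 0.124, adjusted p = 3.38e-16). Sycp3, its axial element, was at 0.704 to 1.06 and 190.4 to 203 CPM (log2 7.80). Spo11, which cuts the DNA to start recombination, was at 0 to 0.201 and 90.5 to 98.7 CPM (log2 9.42). Dmc1, the strand-exchange protein, had a smaller difference, with 1.26, 0.759, 0.804 and 0.546 CPM in the ovaries and 19.5, 19.2, 17.2 and 18.6 CPM in the testes (log2 4.45). Hormad1, a sensor of unsynapsed axes, and Syce3, a part of the central element, were at 0 in every ovary and at 141 to 153 and 56.5 to 62.8 CPM in the testes, at least 3687-fold and at least 1510.2-fold higher. Gm1564, also known as Meioc, which prolongs meiotic prophase, was at 316 to 331 CPM in the testes and had 1 count, in ovary library 1. Mnd1, a partner of Dmc1, was the member not called, at 2.07 to 2.71 and 2.75 to 3.78 CPM.

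The piRNA pathway, which silences transposons in germ cells with small RNA bound to PIWI proteins, was as one-sided. Of 20 tested members 19 were higher in the testis, 18 beyond 4-fold, and none in the ovary (median 6.19). Mael, a protein of the nuage, was at 1.56, 0.860, 1.44 and 0.982 CPM in the ovaries and 1717, 1739.7, 1735 and 1689 CPM in the testes (log2 10.47, SE 0.111, adjusted p = 1.08e-16). Piwil1, the PIWI protein of pachytene spermatocytes, was at 0.402, 0.253, 0 and 0.164 CPM in the ovaries and 434, 474, 456 and 490.1 CPM in the testes (log2 11.05). Piwil2 was at 2.48 to 3.87 and 272 to 290.0 CPM (log2 6.39). Tdrd6, a tudor protein of the chromatoid body, stood at 0.405 to 0.653 and 1586 to 1699 CPM (log2 11.57). The RNA helicases Ddx25 and Ddx4 were at 633 to 649 and 736 to 756 CPM in the testes against 0.455 to 0.905 and 1.67 to 3.12 CPM in the ovaries. Piwil4, the PIWI protein of fetal germ cells, was the member not called, at 0.704, 0.911, 1.26 and 1.04 CPM in the ovaries and 0.508, 0.757, 0.588 and 0.749 CPM in the testes.

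Genes of spermatid chromatin and transcription had summed levels of 175 to 207 CPM in the ovaries and 24702 to 26182 CPM in the testes. Of 22 members 21 were higher in the testis, all beyond 4-fold (median 9.32). The protamine genes Prm1 and Prm2, whose proteins replace histones, were at 3925, 4074, 4079 and 3819 CPM and 5520.3, 5581, 5671 and 5419 CPM in the testes. In the ovaries Prm1 was at 0.201, 0.0506, 0.230 and 0.218 CPM and Prm2 at 0.251, 0.152, 0.344 and 0.164 CPM, with log2 differences of 14.44 and 14.55. The transition protein genes Tnp1 and Tnp2 were at 2191 to 2394 and 3585 to 4022 CPM in the testes and no higher than 0.352 CPM in an ovary. Testis library 4 was the lowest testis for Prm1, Prm2, Tnp1 and Tnp2, and all testes were far above all ovaries. The linker histone genes H1fnt and Hils1 were at 606 to 653 and 579 to 688 CPM in the testes. Hist1h1t, the H1 variant of spermatocytes, was at 334 to 364 CPM against 0.201 to 0.631 CPM. Prm3 was at 0 in every ovary and 162 to 174 CPM in the testes, at least 4205-fold higher. Counts of genes with near-identical copies, such as the histone, Tssk, Adam1, H2 and haemoglobin genes named here, are uncertain, since reads may have been split or dropped among the copies.

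Crem, the cAMP-responsive activator that turns on many spermatid genes, was at 14.6, 11.6, 13.4 and 13.8 CPM in the ovaries and 322, 313, 306 and 301 CPM in the testes (log2 4.54, SE 0.0682, adjusted p = 1.58e-15). Rfx2, a regulator of ciliary genes in spermatids, was at 6.08, 5.41, 6.37 and 5.51 CPM in the ovaries and 385, 394, 401 and 408 CPM in the testes (log2 6.09, SE 0.0631, adjusted p = 9.68e-17). Both were present in every ovary. Rnf8, a ubiquitin ligase for histones that many cell types use, was the member not called, at 108 to 126 CPM in the ovaries and 116 to 124 CPM in the testes.

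All 28 acrosome and gamete fusion genes and all 35 sperm tail genes were higher in the testis beyond 4-fold, with medians of 11.27 and 9.12. Acr, the acrosomal protease acrosin, was at 0.352, 0.202, 0.0574 and 0.382 CPM in the ovaries and 167, 170.1, 165 and 163 CPM in the testes (log2 9.33). Izumo1, the sperm protein that binds its receptor on the egg, was at 1.51, 1.06, 0.861 and 1.36 CPM in the ovaries and 114, 114, 117 and 107 CPM in the testes (log2 6.54, SE 0.104, adjusted p = 2.57e-15). Its receptor gene, listed in the file as Folr4, had the reverse pattern at a low level, 1.61, 0.860, 1.44 and 0.982 CPM in the ovaries and 0 in every testis, at least 33.1-fold higher in the ovary. Crisp2, a secretory protein of the acrosome and tail, reached 3212 to 3326 CPM in the testes against 0.0503 to 0.344 CPM (log2 13.71). Spam1, a sperm hyaluronidase, was at 110.5 to 125 against 0 to 0.172 CPM (log2 10.23). Sppl2c, a protease relative, Actl7a, an actin relative of the acrosome, and Spesp1 had 1 or 2 counts over the 4 ovaries and 434 to 482, 439 to 478 and 449 to 464 CPM in the testes.

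In the tail, Odf2 reached 4718 to 4970.1 CPM and was also present in the ovaries at 59.8 to 70.9 CPM (log2 6.22). Odf1, another outer dense fibre protein, was at 0.0503, 0.101, 0.402 and 0 CPM in the ovaries and 1578, 1651, 1659 and 1555 CPM in the testes (log2 13.50, and 14.76 without ovary library 3). Akap3, which anchors protein kinase A in the fibrous sheath, was at 1565 to 1690.3 CPM in the testes and had 3 counts over the ovaries, 2 of them in library 1, a 40946-fold (95% counting interval 14010.5 to 198551) difference. Catsper1, the pore subunit of the sperm calcium channel, was at 117 to 129 CPM with 2 counts in ovary library 3 and none elsewhere in the ovaries, a 4613-fold (95% counting interval 1277 to 38093) difference. Catsperb, an accessory subunit, was at 0 in every ovary and 179 to 195 CPM in the testes. Tekt1 and Dnahc1, members that other motile cilia also use, had counts in every ovary. The tektin gene Tekt1 was at 8.85, 8.50, 9.82 and 10.4 CPM in the ovaries and 507, 504, 502 and 468 CPM in the testes (log2 5.72). The dynein gene Dnahc1, now Dnah1, was at 15.4 to 21.1 and 297 to 337 CPM (log2 4.16). Tssk2, a kinase of late spermatids, was at 620.4 to 704 CPM in the testes with 2 counts over the ovaries.

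Promoter sequences of the genes on either side were searched for motifs that match these regulators, and for the TATA box and the SF-1 site. Windows of 250 bases before RefSeq start sites on GRCm38.p6 were read on both strands for 4 motifs: the X-box, to which RFX proteins bind (in the 1 form of 10 letters that stands in capitals in the first 3 sequences below), the cAMP response element TGACGTCA, to which CREM binds, the TATA box TATAAA and the SF-1 site CAAGGTCA. None of the 4 contains another. The X-box was in 1.22% of the windows of testis-higher genes beyond 4-fold (51 of 4178), 0.0716% of ovary-higher windows (2 of 2794), 0.376% of windows of tested genes not called beyond 4-fold (37 of 9834), and 0.471% of all 31396 autosomal windows. The cAMP response element was in 2.73%, 1.11%, 2.53% and 1.58% of these sets in the same order, the TATA box in 8.26%, 9.66%, 6.27% and 12.4%, and the SF-1 site in 1.48%, 1.18%, 0.966% and 1.35%. The sets also differed in base composition, with median GC contents of 55.2%, 56.8% and 59.6% in testis-higher, ovary-higher and uncalled windows; its part in the motif shares was not tested. The spermatid chromatin, acrosome and tail lists, with 22, 25 and 41 windows, held no X-box. Their only cAMP response element was that of Izumo1 in the acrosome list. A match describes letters in a window and does not show a bound site.

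The 8 windows below hold 150 bases before the start, 5′ to 3′ on the gene's strand, with the motif in capitals. Tcp11, Rab3il1 and Kif9 carry the X-box, Tesk1, Ldha and Izumo1 the cAMP response element, and Nppc and Kitl the TATA box. The 8 windows were chosen as examples after the values and motifs of these genes were seen.
Tcp11: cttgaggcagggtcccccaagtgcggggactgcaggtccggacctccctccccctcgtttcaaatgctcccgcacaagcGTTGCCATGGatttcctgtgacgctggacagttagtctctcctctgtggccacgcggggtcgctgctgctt
Rab3il1: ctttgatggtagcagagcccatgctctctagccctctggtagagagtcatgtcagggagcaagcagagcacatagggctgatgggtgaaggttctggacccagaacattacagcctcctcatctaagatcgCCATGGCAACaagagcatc
Kif9: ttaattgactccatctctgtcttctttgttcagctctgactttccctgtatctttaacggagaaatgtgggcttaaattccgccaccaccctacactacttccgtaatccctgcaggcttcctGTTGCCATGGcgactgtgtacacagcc
Tesk1: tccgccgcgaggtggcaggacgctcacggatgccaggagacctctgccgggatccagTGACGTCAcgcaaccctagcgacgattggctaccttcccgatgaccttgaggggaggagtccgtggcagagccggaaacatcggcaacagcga
Ldha: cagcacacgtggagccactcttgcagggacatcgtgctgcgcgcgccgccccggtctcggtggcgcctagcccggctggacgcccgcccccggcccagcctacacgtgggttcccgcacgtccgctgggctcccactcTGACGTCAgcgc
Izumo1: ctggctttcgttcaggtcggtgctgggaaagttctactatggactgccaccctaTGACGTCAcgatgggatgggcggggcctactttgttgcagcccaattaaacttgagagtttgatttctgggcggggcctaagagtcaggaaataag
Nppc: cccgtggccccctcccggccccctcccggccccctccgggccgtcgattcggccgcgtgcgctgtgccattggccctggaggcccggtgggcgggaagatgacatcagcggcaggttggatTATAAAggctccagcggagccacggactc
Kitl: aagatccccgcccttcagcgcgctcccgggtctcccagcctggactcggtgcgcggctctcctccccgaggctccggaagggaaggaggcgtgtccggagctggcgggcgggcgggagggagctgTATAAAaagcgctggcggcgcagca
The X-box starts 71 bases before the start in Tcp11 (chr17:28079765-28079914, minus strand), 19 in Rab3il1 (chr19:10001519-10001668, plus strand, motif on the other strand, so that its reverse complement stands in capitals) and 27 in Kif9 (chr9:110476844-110476993, plus strand). The cAMP response element starts 93 bases before the start in Tesk1 (chr4:43442127-43442276, plus strand), 12 in Ldha (chr7:46845654-46845803, plus strand) and 96 in Izumo1 (chr7:45621661-45621810, plus strand). The TATA box lies 29 bases before the start in Nppc (chr1:86670574-86670723, minus strand) and 25 in Kitl (chr10:100015671-100015820, plus strand). RefSeq gives 3 start windows for Tcp11, 5 for Rab3il1, 2 each for Kif9 and Ldha and 1 for each of the other 4 genes, and the windows shown are those that hold the motif.

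The X-box and cAMP response element genes shown were higher in the testis and the TATA genes in the ovary, which follows from their choice as examples. Other list genes had the reverse match. Hhip held the cAMP response element and was higher in the ovary, and Prm2 held the TATA box and was higher in the testis. Tcp11, a sperm motility protein, was at 4.12, 3.14, 3.16 and 4.86 CPM in the ovaries and 2406, 2500.4, 2474 and 2411 CPM in the testes (log2 9.32, SE 0.114, adjusted p = 8.25e-16). Kif9, a kinesin of the axoneme, was at 11.8 to 16.04 and 511 to 527 CPM (log2 5.21), and Rab3il1, an exchange factor for Rab proteins, at 17.8 to 21.1 and 640.5 to 718 CPM (log2 5.14). The testis kinase gene Tesk1 was at 23.8 to 29.7 and 1342 to 1449 CPM (log2 5.71). Ldha, the somatic lactate dehydrogenase, was at 143, 229.6, 183 and 182 CPM in the ovaries and 1047, 1048, 1069 and 1057 CPM in the testes (log2 2.52).  Nppc, the peptide that keeps oocytes paused in meiosis, was at 3.32, 7.99, 8.32 and 8.51 CPM in the ovaries and 0.254, 0.151, 0.0490 and 0.187 CPM in the testes (log2 -5.40). Kitl, the ligand of Kit, was at 112, 109, 108 and 127 CPM in the ovaries and 36.0, 34.6, 37.1 and 36.4 CPM in the testes (log2 -1.66), not beyond 4-fold.

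Oocyte genes were mostly higher in the ovary. Of 32 tested members of the oocyte and egg coat list, 27 were higher in the ovary, 22 beyond 4-fold, and 4 in the testis (median -4.93). The shares of all genes were 43.4%, 16.4% and 47.6% in the same order. Zp2 and Zp3 build the coat around the egg. Zp2 was at 44.2, 27.1, 40.1 and 38.6 CPM in the ovaries and 0.152, 0, 0 and 0.0937 CPM in the testes (log2 -9.11, and -9.88 without testis library 1, resting on 2 counts). Zp3 was at 21.2, 13.9, 19.9 and 20.6 CPM in the ovaries and 0.203, 0.252, 0.392 and 0.281 CPM in the testes (log2 -6.03, SE 0.218, adjusted p = 1.03e-11). H1foo, the oocyte's linker histone, was at 18.9, 9.66, 19.9 and 19.3 CPM in the ovaries and 0.152, 0, 0.196 and 0.0937 CPM in the testes (log2 -7.18, SE 0.426, adjusted p = 3.21e-08). Ovary library 2 was the lowest ovary for these 3 genes and for Gdf9. Nobox, a transcription factor of primordial follicles, was at 3.54 to 7.29 CPM in the ovaries and 0.102 to 0.353 CPM in the testes (log2 -4.59). Zar1, needed for the first cleavage, Bcl2l10, a survival factor, and the oocyte kinase gene Wee2 had 1 or 2 counts over the 4 testes and up to 11.6, 16.2 and 7.39 CPM in an ovary. The ratios were 401-fold (95% counting interval 111 to 3321) for Zar1, 547-fold (95% counting interval 151 to 4523) for Bcl2l10 and 468-fold (95% counting interval 83.5 to 18518) for Wee2. The testis counts of Bcl2l10 and Wee2 lay in testis library 1 alone.

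Several genes named for the oocyte had a testis level of their own. Gdf9, the oocyte growth factor that acts on granulosa cells, was at 44.9, 23.4, 45.8 and 43.7 CPM in the ovaries and 13.6, 13.7, 12.8 and 14.2 CPM in the testes (log2 -1.54, SE 0.203, adjusted p = 6.58e-05), called but not beyond 4-fold. Nlrp5, a maternal-effect gene of the subcortical complex, was at 42.4, 23.8, 32.1 and 39.3 CPM in the ovaries and 5.74, 6.96, 4.51 and 6.84 CPM in the testes (log2 -2.52). Nlrp14, of the same family, was at 65.2, 34.1, 64.2 and 65.6 CPM in the ovaries and 304, 317, 301 and 307 CPM in the testes (log2 2.42, SE 0.206, adjusted p = 1.03e-05), higher in the testis beyond 4-fold. Figla, a factor of follicle formation, was at 0.955, 0.354, 0.459 and 0.764 CPM in the ovaries and 0.660, 1.51, 1.23 and 1.59 CPM in the testes, with overlapping groups (log2 0.97, SE 0.359, adjusted p = 0.0211). Its call was lost with library totals as the scaling (0.17) and without ovary library 2 (0.77), ovary library 3 (0.85), testis library 2 (0.90) or testis library 4 (0.86). With Nlrp14 in it, the list had summed levels of 298 to 522 CPM in the ovaries and 383 to 403 CPM in the testes.

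Of 20 tested genes known in the germ line of both sexes, 17 were higher in the testis, 15 beyond 4-fold, and 2 in the ovary (median 5.24). Dazl, an RNA-binding protein that germ cells of both sexes need, was at 6.38, 3.59, 5.97 and 7.15 CPM in the ovaries and 204, 191, 187 and 202 CPM in the testes (log2 5.09, SE 0.153, adjusted p = 2.75e-10). Ybx2, which stores messenger RNA in oocytes and spermatids, was at 1.61, 1.72, 3.10 and 1.91 CPM in the ovaries and 1180.5, 1265, 1241 and 1270.5 CPM in the testes (log2 9.23). Stag3, the meiotic cohesin, was at 1.36 to 1.91 and 796 to 806 CPM (log2 9.01). Gtsf1, a piRNA factor, was at 0.818 to 2.26 and 301 to 329 CPM (log2 7.85). Dppa3, a maternal factor of the early embryo, was higher in the ovary, with 7.19, 5.21, 6.49 and 7.15 CPM in the ovaries and 0.203, 0.101, 0 and 0.234 CPM in the testes (log2 -5.52). Taf4b, a TFIID subunit of gonads, was at 35.3, 27.6, 37.9 and 37.5 CPM in the ovaries and 45.6, 44.8, 42.2 and 43.0 CPM in the testes (log2 0.35, SE 0.0895, adjusted p = 0.00256), a call that ubiquitous-gene scaling ended (0.24) and library totals reversed (-0.46).

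Germ cells replace several housekeeping genes with relatives of their own, and 20 such pairs were compared per length as RPKM, the CPM per kilobase of exon. The germ line member was higher in the testis beyond 4-fold in 20 of 20 pairs, where 25.4% of all tested genes were. The pairs were chosen for a relative known from the germ line, so this count follows from the choice. The broadly expressed member was higher in the testis in 8 pairs and in the ovary in 12 (3 and 2 beyond 4-fold). The shares of all genes were 47.6% and 43.4% (25.4% and 16.4% beyond 4-fold). Of the 8, Calr (0.19), Papola (0.14) and Eno1 (0.59) differed by less than the shift of 0.81 that library totals give, under which Calr was at -0.62. The call of Calr was also lost with ubiquitous-gene scaling (0.08) and with testis counts thinned to the ovary depth (0.13). Within the testis the germ line member exceeded the broad one per kilobase in 18 pairs, and within the ovary in 2. Gapdhs, the glycolytic enzyme of the sperm tail, made up 0.0423% of its pair's RPKM in the ovary and 97.8% in the testis. It was at 724, 787, 812 and 792 CPM in the testes with 3 counts over the ovaries, all in library 1, a 19595-fold (95% counting interval 6705 to 95022) difference. Gapdh, its broad partner, was at 199, 252, 221 and 243 CPM in the ovaries and 42.4, 44.2, 43.9 and 45.4 CPM in the testes (log2 -2.38, SE 0.0715, adjusted p = 1.52e-12), lower in every testis than in every ovary.

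Ldhc made up 0.721% of its pair in the ovary and 88.8% in the testis, where it was at 4032, 4027, 4079 and 3832 CPM. Cyct, the cytochrome c of the testis, went from 1.24% to 94.6%, with 0.101, 0, 0 and 0.164 CPM in the ovaries and 82.3, 78.9, 73.2 and 77.1 CPM in the testes (log2 10.07, and 10.88 without ovary library 4, resting on 2 counts). Its partner Cycs was at 22.9 to 29.4 CPM in the ovaries and 21.1 to 25.0 CPM in the testes (log2 -0.25); its call was lost with RLE factors and DESeq2 (-0.13), with all 16 libraries in the fit (-0.25), without ovary library 4 (-0.21) and without testis library 2 (-0.23), 3 (-0.17) or 4 (-0.21). Slc25a31, an ADP/ATP carrier, went from 0.789% to 66.4%, beside Slc25a4 at 148 to 162 and 38.02 to 43.3 CPM (log2 -1.96). Clgn, a chaperone of the endoplasmic reticulum, made up 74.7% of its pair in the testis, with 938 to 1019 CPM in the testes and 0 to 0.302 CPM in the ovaries (log2 13.07, and 14.47 without ovary library 1, resting on 2 counts). Its broad partner Canx was at 552 to 587 and 372 to 389 CPM (log2 -0.598). The 2 pairs whose germ line member stayed below its partner in the testis were Calr3 (27.9%) and Eno4 (42.3%). In the ovary Slc2a3, a glucose transporter (61.5%), and Tbpl1, a TBP relative (77.9%), exceeded their partners.

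**Figure D3:**
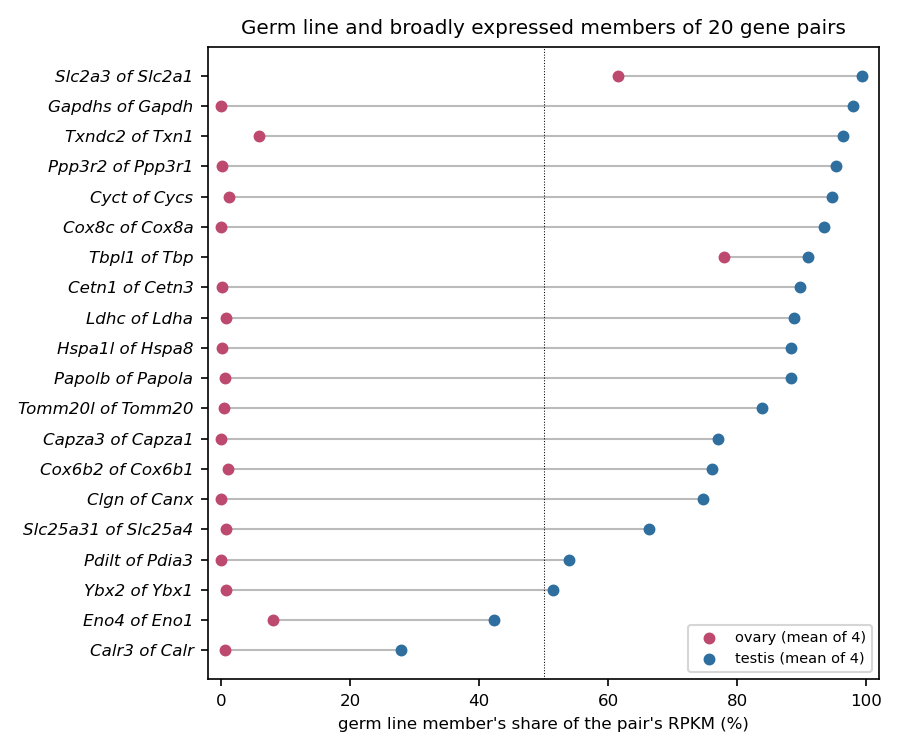
Share of each gene pair's summed RPKM that the germ line member takes, as the mean of 4 ovary libraries (red) and of 4 testis libraries (blue), for 20 pairs; the dotted line marks equal parts. In the testis 18 of 20 shares lie above it, and in the ovary 2 do.

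Steroid genes were mostly higher in the ovary, yet some related enzymes had opposite orders between the organs. Of 29 tested genes of steroid synthesis and inactivation, 22 were higher in the ovary and 5 in the testis (14 and 3 beyond 4-fold, median -2.15). The shares of all genes were 43.4% and 47.6% (16.4% and 25.4% beyond 4-fold). The summed level was 6909 to 8623 CPM in the ovaries and 912 to 1257 CPM in the testes. Star, which brings cholesterol into the mitochondrion, was not called, at 349, 132, 130.1 and 181 CPM in the ovaries and 112, 159, 112 and 81.5 CPM in the testes (log2 -0.77, SE 0.394, adjusted p = 0.105). Its groups overlapped, and it was called, at -1.57, with library totals as the scaling. Cyp11a1, the side-chain cleavage enzyme that makes pregnenolone, was at 2557, 1816, 1801 and 2326 CPM in the ovaries and 140.0, 115, 60.2 and 109.8 CPM in the testes (log2 -4.32, SE 0.302, adjusted p = 5.21e-06). Cyp17a1, which makes androgen precursors, was not called either, at 211, 319, 272 and 212 CPM in the ovaries and 354, 332, 158 and 292 CPM in the testes (log2 0.16, SE 0.28, adjusted p = 0.597). Testis library 3 was the lowest testis for both enzymes; without it Cyp17a1 was called as higher in the testis (0.40), and with library totals as the scaling its sign was reversed (-0.64).

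Related enzymes of the next steps differed in their order. Hsd3b1, the main dehydrogenase of its step in the ovary, was at 3018, 2591, 2980.1 and 2584 CPM in the ovaries and 93.8, 90.6, 81.2 and 69.8 CPM in the testes (log2 -5.06, SE 0.108, adjusted p = 1.23e-12). Hsd3b6, the adult Leydig isoform, was at 0.251, 0.455, 0.631 and 0.982 CPM in the ovaries and 108, 100.3, 85.2 and 84.6 CPM in the testes (log2 7.36, SE 0.203, adjusted p = 3.51e-11). The pair had opposite orders without overlap. In CPM the testes held both at similar levels, and the ovaries held little but Hsd3b1. Hsd17b3, which completes testosterone in Leydig cells, was at 0.352, 0.304, 0.287 and 0.218 CPM in the ovaries and 21.2, 23.7, 17.2 and 22.8 CPM in the testes (log2 6.15, SE 0.182, adjusted p = 1.27e-12). Hsd17b1, which makes oestradiol in granulosa cells, was at 83.4, 102, 119 and 119 CPM in the ovaries and 1.67, 1.01, 1.32 and 0.983 CPM in the testes (log2 -6.40, SE 0.178, adjusted p = 4.24e-11). Cyp19a1, the aromatase, was higher in every ovary, with 53.3, 64.5, 52.1 and 94.5 CPM in the ovaries and 6.80, 7.62, 8.14 and 6.51 CPM in the testes (log2 -3.18, SE 0.219, adjusted p = 8.18e-07).

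Genes that inactivate or reduce steroids also differed. Akr1c18, which breaks down progesterone at the end of luteal life, was at 37.0, 6.42, 14.2 and 35.6 CPM in the ovaries and had 2 counts over the testes, a 951-fold (95% counting interval 263 to 7860.3) difference. Akr1c14, a hydroxysteroid dehydrogenase, was at 264, 368, 427 and 449 CPM in the ovaries and 5.18, 3.23, 2.50 and 3.32 CPM in the testes (log2 -6.73). Hsd11b2, which inactivates glucocorticoids, was at 9.80 to 19.3 CPM in the ovaries and 0 to 0.305 CPM in the testes (log2 -6.60). Srd5a1, a steroid reductase, was at 25.3 to 29.9 and 5.98 to 7.41 CPM (log2 -2.01). Sult1e1, the oestrogen sulphotransferase of Leydig cells, was the reverse case, with 0.151, 0.405, 0.230 and 0.0546 CPM in the ovaries and 15.6, 17.9, 13.7 and 16.3 CPM in the testes (log2 6.18, SE 0.252, adjusted p = 3.77e-11). Hsd17b7, of luteal oestrogen and cholesterol synthesis, was at 468, 41.3, 38.9 and 129 CPM in the ovaries and 9.80, 8.07, 6.67 and 7.77 CPM in the testes. Its log2 difference was -4.39, and -3.11 without ovary library 1, which held the highest level by far, and it was not called with limma-voom. In the GRCm38 annotation Hsd3b1 (ENSMUSG00000027871) on chromosome 3 from 98852194 to 98859794 and Hsd3b6 (ENSMUSG00000027869) on chromosome 3 from 98805504 to 98814443 are neighbours, and Hsd17b3 (ENSMUSG00000033122) on chromosome 13 from 64058266 to 64089230 lies elsewhere.

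**Figure D4:**
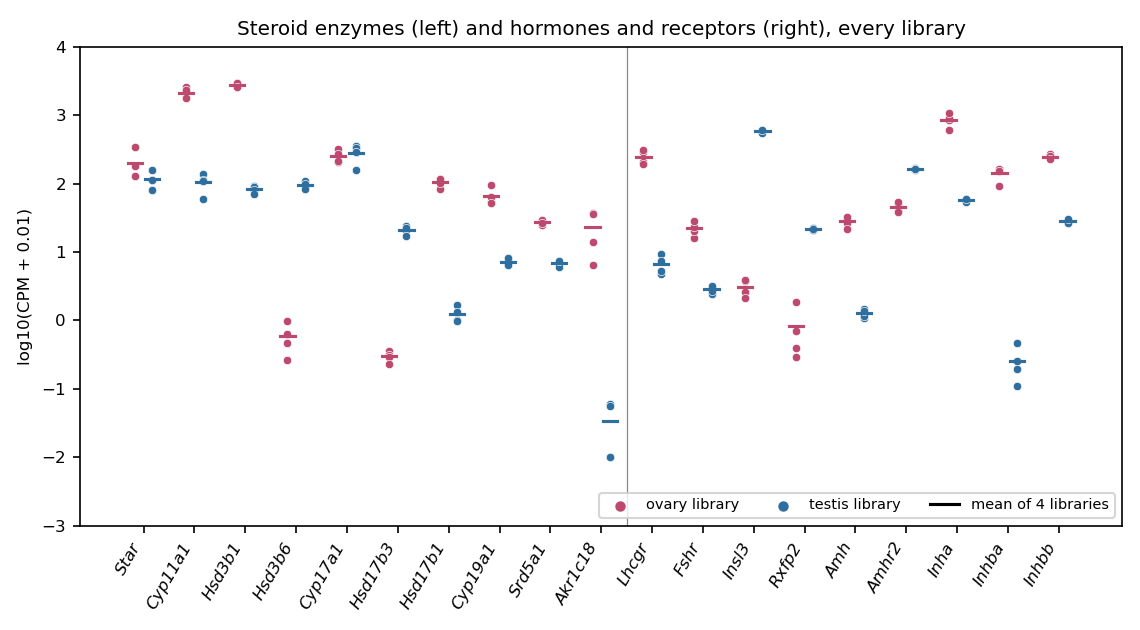
Level of 10 steroid genes (left) and 9 hormone and receptor genes (right) in each ovary (red) and testis (blue) library, as log10 of CPM plus 0.01; bars mark the mean of 4 libraries. Hsd3b6, Hsd17b3, Insl3, Rxfp2 and Amhr2 lie higher in the testis, Star and Cyp17a1 overlap, and the other genes lie higher in the ovary.

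Most hormone and receptor genes were higher in the ovary. Of 26 members 22 were higher there, 20 beyond 4-fold, and 4 in the testis, 2 beyond 4-fold (median -3.87). Of all tested genes 43.4% were higher in the ovary, 16.4% beyond 4-fold, and 47.6% in the testis, 25.4% beyond 4-fold. Among the pituitary hormone receptors, Lhcgr was at 207, 289, 193 and 309 CPM in the ovaries and 9.34, 7.52, 4.75 and 5.198 CPM in the testes (log2 -5.22, SE 0.283, adjusted p = 7.85e-07). Fshr was at 16.03, 20.7, 23.7 and 28.3 CPM in the ovaries and 2.44, 3.08, 2.65 and 3.18 CPM in the testes (log2 -2.96, SE 0.177, adjusted p = 4.10e-09). The prolactin receptor gene Prlr was at 420.4 to 740.1 CPM in the ovaries and 43.2 to 58.4 CPM in the testes (log2 -3.38). Among steroid receptors, Esr1 was at 222 to 307 and 8.73 to 11.2 CPM (log2 -4.56) and Esr2, the oestrogen receptor of granulosa cells, at 65.2 to 105 and 0.686 to 1.67 CPM (log2 -6.32). Pgr, the progesterone receptor, was at 52.9, 102, 56.0 and 58.6 CPM in the ovaries and 0.254, 0, 0 and 0 CPM in the testes (log2 -9.96). Without testis library 1 every remaining testis was at 0, and the fitted -13.35 is no bound. Ovary library 2 had the highest Esr1 and Pgr. Every ovary was above every testis for these 6 receptors.

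The inhibin and activin subunits were likewise higher in the ovary. Inha was at 601, 862, 906 and 1092 CPM in the ovaries and 58.9, 57.8, 54.4 and 60.6 CPM in the testes (log2 -3.90, SE 0.184, adjusted p = 1.19e-07), and Inhba at 92.5, 158, 163 and 152 CPM in the ovaries and 0.457, 0.101, 0.245 and 0.187 CPM in the testes (log2 -9.13). Inhbb, the beta subunit of Sertoli cells, was at 244, 268, 254 and 233 CPM in the ovaries and 28.4, 27.2, 26.9 and 30.7 CPM in the testes (log2 -3.14). Ovary library 1 was the lowest ovary for Inha and Inhba. Insl3, the Leydig hormone that guides testis descent, had the opposite order, with 2.61, 2.12, 3.79 and 3.93 CPM in the ovaries and 598, 616, 552 and 610.1 CPM in the testes (log2 7.59, SE 0.143, adjusted p = 1.23e-12). So had its receptor gene Rxfp2, with 0.704, 1.87, 0.287 and 0.382 CPM in the ovaries and 22.6, 20.9, 21.2 and 21.7 CPM in the testes (log2 4.69, and 5.52 without ovary library 2). Bmpr1b, a BMP receptor of granulosa cells, was at 110.0 to 160.4 and 0.749 to 1.98 CPM (log2 -6.88). Amhr2, the receptor of Amh, was higher in the testis, at 38.8 to 54.6 CPM in the ovaries and 159 to 169 CPM in the testes (log2 1.84), the reverse of its ligand.

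Cholesterol synthesis, which feeds the steroid pathway and is also active in germ cells, had members of both directions. Of 21 tested members, 12 (57.1%) were higher in the ovary and 7 (33.3%) in the testis, against 43.4% and 47.6% of all genes. Beyond 4-fold the counts were 2 and 1, or 9.52% and 4.76%, against 16.4% and 25.4% (1 in the ovary without ovary library 4 or any 1 testis; median -0.76). With library totals as the scaling the counts were 15 and 3, with Fdps and Pmvk reversed. Fdft1, squalene synthase, was at 61.4, 64.2, 60.6 and 49.1 CPM in the ovaries and 524, 523, 512 and 511 CPM in the testes (log2 3.14, SE 0.0741, adjusted p = 1.32e-13). Hmgcs1, an early enzyme of the pathway, was at 352, 231, 212 and 187 CPM in the ovaries and 120.4, 119, 108 and 116 CPM in the testes (log2 -1.08, SE 0.196, adjusted p = 0.00105). Fdft1 and Hmgcs1 thus had opposite orders, and ovary library 1 was the highest ovary for Hmgcs1. Cyp51, a demethylase of lanosterol, was at 53.6 to 98.3 and 154 to 171 CPM (log2 1.20), and its call was lost with library totals (0.39).

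The Leydig and Sertoli cell lists held calls of both directions. Of 16 Leydig members 8 were higher in the testis and 6 in the ovary (6 and 5 beyond 4-fold; median 0.23); Cyp11a1, Lhcgr and Prlr of this list are also known from theca and luteal cells. Hao2, a peroxisomal oxidase, was at 91.3, 49.3, 53.2 and 45.7 CPM in the ovaries and 4.67, 3.88, 2.45 and 3.75 CPM in the testes (log2 -4.02). Of 26 Sertoli members 13 were higher in the testis and 11 in the ovary (9 and 5 beyond 4-fold; median 0.599). Beyond 4-fold the testis and ovary shares were 37.5% and 31.2% of the Leydig list and 34.6% and 19.2% of the Sertoli list, against 25.4% and 16.4% of all genes. With library totals as the scaling both medians were reversed, to -0.57 and -0.21.

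Several Sertoli genes were higher in the testis. Cldn11, a claudin of the barrier, was at 6.79, 4.55, 7.06 and 7.97 CPM in the ovaries and 83.0, 84.2, 86.1 and 90.8 CPM in the testes (log2 3.71, SE 0.124, adjusted p = 3.17e-11). Aard, a gene of the male gonad, was at 6.93 to 10.5 and 107 to 116 CPM (log2 3.69), and the β-defensin gene Defb36 at 0.0546 to 0.172 and 18.97 to 22.5 CPM (log2 7.55). Cst9, a cystatin, was at 118 to 127 CPM in the testes with 3 counts over the ovaries, a 3100.4-fold (95% counting interval 1061 to 15037) difference. Clu, the abundant secretory protein clusterin, was at 402, 452, 571 and 574 CPM in the ovaries and 834, 873, 867 and 863 CPM in the testes (log2 0.78, SE 0.107, adjusted p = 5.14e-05), with the sign reversed to -0.026 under library totals. Gdnf, the niche factor of stem cells, was at 3.27, 4.10, 5.05 and 3.49 CPM in the ovaries and 1.37, 1.01, 1.42 and 1.26 CPM in the testes (log2 -1.64, SE 0.202, adjusted p = 4.21e-06), higher in the ovary. Dhh, the hedgehog ligand of Sertoli cells, was not called, with 10.2, 11.4, 13.7 and 13.9 CPM in the ovaries and 13.5, 16.4, 13.97 and 13.9 CPM in the testes (log2 0.23). Its sign was reversed, -0.57, under library totals, and it was called as higher in the testis with RLE factors and DESeq2 (0.36), limma-voom (0.25), no filter (0.26), and without ovary library 3 (0.29), ovary library 4 (0.30) or testis library 1 (0.30).

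Granulosa genes were mostly higher in the ovary (median -5.98): 23 of 25 members were higher in the ovary, 21 beyond 4-fold, and 2, Amhr2 and Gatm, in the testis. Their summed level was 3932 to 5446 CPM in the ovaries and 552 to 607 CPM in the testes. Nr5a2, the nuclear receptor LRH-1 of granulosa and luteal cells, was at 238, 206, 257 and 299 CPM in the ovaries and 2.08, 0.303, 0.490 and 0.468 CPM in the testes (log2 -8.23, and -9.15 without testis library 1). Ihh, the hedgehog ligand that granulosa cells send to theca cells, was at 22.9, 10.9, 15.6 and 14.4 CPM in the ovaries and 0.457, 0.151, 0.245 and 0.140 CPM in the testes (log2 -5.98, SE 0.347, adjusted p = 1.20e-08). Its targets, listed with theca cells, were higher in the ovary too. The receptor gene Ptch1 was at 71.4, 51.2, 54.9 and 63.7 CPM in the ovaries and 6.75, 5.90, 8.24 and 9.13 CPM in the testes (log2 -3.002, SE 0.147, adjusted p = 3.68e-09). Gli1 was at 9.81 to 13.0 and 1.03 to 1.73 CPM (log2 -3.004) and Hhip at 8.20 to 15.2 and 0.796 to 1.23 CPM (log2 -3.69). Of 12 theca members 10 were higher in the ovary, all beyond 4-fold, and Insl3 in the testis, with 1 more member there without testis library 3 (median -3.01).

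In the corpus luteum list 14 of 16 members were higher in the ovary, 11 beyond 4-fold, and Avpr1a in the testis (log2 0.77), reversed with library totals as the scaling (median -2.90). Ptgfr, the receptor of the prostaglandin that ends luteal life, was at 264, 73.5, 91.2 and 210.4 CPM in the ovaries and 0.305, 0.202, 0 and 0 CPM in the testes. Its log2 difference was -10.27, and -11.09 without testis library 1. It was not called with limma-voom. Parm1, a mucin-like gene, was at 17.3 to 24.2 and 3.84 to 4.64 CPM (log2 -2.34). Ovary libraries 1 and 4 had the highest Sfrp4, Ptgfr and Akr1c18, and libraries 2 and 3 the lowest.

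Connective tissue, muscle and vessel genes were higher in the ovary almost throughout. In the extracellular matrix list 38 of 41 members were higher in the ovary, 31 beyond 4-fold, and 1 in the testis (median -3.87). The shares of all genes were 43.4%, 16.4% and 47.6% in the same order. Col3a1, a fibrillar collagen, was at 1478, 2125, 1308 and 1517 CPM in the ovaries and 49.5, 27.2, 49.2 and 58.3 CPM in the testes (log2 -5.12, SE 0.302, adjusted p = 1.74e-06). Col1a1 was at 386, 797, 308 and 285 CPM in the ovaries and 10.8, 5.70, 20.4 and 18.7 CPM in the testes (log2 -4.99, SE 0.574, adjusted p = 1.34e-04). Ovary library 2 had the highest level of both, and testis library 2 the lowest. Col4a1, of basement membranes, was at 426 to 627 and 29.3 to 36.0 CPM (log2 -3.98). The proteoglycan genes were higher in the ovary too, with Dcn at 493 to 805 and 46.2 to 56.5 CPM (log2 -3.58) and Lum at 170.4 to 321 and 2.22 to 3.502 CPM (log2 -6.41). Vcan, versican of the cumulus matrix, was at 229 to 315 and 3.63 to 4.62 CPM (log2 -6.07). Tnc, tenascin C, was at 239, 192, 201 and 568 CPM in the ovaries and 6.80, 5.95, 4.85 and 6.04 CPM in the testes (log2 -5.66), with ovary library 4 well above the others.

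Other matrix genes differed less, and 1 had the opposite order. Lama1, a laminin of epithelial basement membranes, was at 196, 171, 207 and 223 CPM in the ovaries and 21.2, 24.7, 22.3 and 25.2 CPM in the testes (log2 -3.09). Sparc, a matricellular protein, was at 719.8, 799, 556 and 708 CPM in the ovaries and 268, 261, 267 and 299 CPM in the testes (log2 -1.34), called but not beyond 4-fold. Col4a3 was not called, at 18.5 to 23.7 CPM in the ovaries and 19.07 to 25.2 CPM in the testes. Timp2, an inhibitor of matrix proteases, was the 1 member higher in the testis, with 139.8, 145, 118 and 121 CPM in the ovaries and 837, 866, 852 and 819.7 CPM in the testes (log2 2.69, SE 0.0672, adjusted p = 2.35e-13).

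All 20 fibroblast and stroma genes were higher in the ovary, 15 beyond 4-fold (median -3.15). Pdgfra, the receptor of stromal and theca progenitors, was at 214, 211, 233 and 236 CPM in the ovaries and 28.2, 25.8, 26.7 and 29.6 CPM in the testes (log2 -3.02, SE 0.0616, adjusted p = 2.98e-14). Nr2f2, a nuclear receptor of stroma, was at 52.1 to 69.3 and 5.499 to 6.90 CPM (log2 -3.27). Vim, vimentin, which Sertoli cells also make, was at 290.2 to 338 and 72.1 to 77.2 CPM (log2 -2.06). Igfbp5, which binds insulin-like growth factors, was at 231 to 297 and 0.656 to 4.77 CPM (log2 -6.48), and Dpt, dermatopontin, at 56.2 to 91.6 and 0.637 to 1.22 CPM (log2 -6.14). Of 15 smooth muscle genes, which also mark the peritubular myoid cells of the testis, 14 were higher in the ovary, all beyond 4-fold. Acta2, the actin of smooth muscle, was at 645, 868, 654 and 733 CPM in the ovaries and 66.3, 59.7, 60.6 and 67.4 CPM in the testes (log2 -3.51, SE 0.0991, adjusted p = 1.39e-11). Myh11, its myosin, was at 621 to 847 and 55.9 to 61.4 CPM (log2 -3.69) and Des, desmin, at 72.3 to 142 and 4.04 to 5.63 CPM (log2 -4.34). Actg2, an actin of enteric muscle, was higher in the testis, with 86.5, 171, 100.0 and 104 CPM in the ovaries and 313, 318, 323 and 299 CPM in the testes (log2 1.44).

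Endothelial genes showed the same order, with 18 of 20 higher in the ovary, 13 beyond 4-fold, and Prox1, of lymphatic endothelium (log2 0.36), in the testis, reversed with library totals (median -2.80). Pecam1, of endothelial junctions, was at 77.9, 68.4, 55.2 and 54.3 CPM in the ovaries and 4.26, 5.196, 4.85 and 6.18 CPM in the testes (log2 -3.64, SE 0.149, adjusted p = 5.25e-10). Kdr, the main VEGF receptor, was at 64.6 to 73.6 and 6.91 to 7.65 CPM (log2 -3.25), and Cdh5, the cadherin of vessels, at 45.8 to 65.4 and 6.42 to 8.62 CPM (log2 -2.84). Lyve1, of lymphatic vessels and some macrophages, was at 14.1 to 21.7 and 0.101 to 0.558 CPM (log2 -5.39). Vwf, von Willebrand factor, was not called, at 21.9, 27.1, 18.7 and 17.7 CPM in the ovaries and 17.9, 19.3, 24.8 and 18.5 CPM in the testes (log2 -0.09).

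Most immune genes were higher in the ovary. Of 23 macrophage and myeloid genes 19 were higher in the ovary, 13 beyond 4-fold, and 3 in the testis (median -2.32). The shares of all genes were 43.4%, 16.4% and 47.6% in the same order. Ptprc, the CD45 of all leukocytes, was at 25.9, 32.1, 26.6 and 24.5 CPM in the ovaries and 4.06, 3.48, 3.58 and 2.43 CPM in the testes (log2 -3.01, SE 0.142, adjusted p = 1.74e-10). Csf1r, the growth factor receptor of macrophages, was at 39.4 to 53.1 and 12.6 to 13.9 CPM (log2 -1.70). Emr1, now Adgre1, another macrophage surface protein, was at 17.6 to 25.3 and 5.85 to 7.01 CPM (log2 -1.70). Both were called but not beyond 4-fold. C1qa, of the first complement component, was at 30.5 to 41.9 and 6.13 to 7.89 CPM (log2 -2.32). Lyz2, lysozyme, was at 128 to 154 and 18.6 to 19.8 CPM (log2 -2.88), and Itgam, CD11b, at 7.64 to 28.4 and 1.03 to 1.36 CPM (log2 -3.68).

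Mrc1, the mannose receptor of resident macrophages, was not called, at 51.4, 88.8, 61.0 and 62.6 CPM in the ovaries and 68.9, 67.6, 68.0 and 74.1 CPM in the testes (log2 0.08, SE 0.149, adjusted p = 0.623). Its sign was reversed with library totals (-0.73), with ubiquitous-gene scaling (-0.022) and without ovary library 1 (-0.025), and it was called as higher in the testis without ovary library 2 (0.26). Aif1, known as Iba1 in macrophages, was far higher in the testis, at 3.07, 5.51, 3.90 and 4.09 CPM in the ovaries and 418, 435, 443 and 389 CPM in the testes (log2 6.66, SE 0.129, adjusted p = 7.27e-13), and made up most of the testis sum of the list. Cx3cr1, a chemokine receptor, was at 37.5, 39.0, 33.9 and 39.4 CPM in the ovaries and 113, 107, 110.4 and 107 CPM in the testes (log2 1.55), also higher in every testis. The summed level of the list, 519.6 to 716 CPM in the ovaries and 682 to 736 CPM in the testes, does not show the order of its members.

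Antigen presentation was higher in the ovary for 13 of 16 members, 11 beyond 4-fold, and in the testis for Tapbp and Nlrc5 (median -3.09); Tapbp was reversed with library totals. Cd74, the invariant chain of MHC class II, was at 156, 169, 140.3 and 122 CPM in the ovaries and 13.3, 13.7, 13.97 and 11.8 CPM in the testes (log2 -3.48, SE 0.104, adjusted p = 1.10e-11). Ciita, the activator of class II genes, was at 4.65 to 6.32 and 0.102 to 0.404 CPM (log2 -4.199). The class II gene H2-Ab1 was at 41.7 to 60.6 and 9.13 to 11.6 CPM (log2 -2.34). B2m, the light chain of MHC class I, was at 232, 292, 214 and 183 CPM in the ovaries and 37.96, 40.8, 35.6 and 33.7 CPM in the testes (log2 -2.64, SE 0.142, adjusted p = 7.93e-08). The class I gene H2-K1 was at 112 to 192 and 66.2 to 73.2 CPM (log2 -1.05).

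Several lymphocyte genes were too low to test. Of 25 members 16 passed the filter, while Cd3e and Cd79a, which define T and B cells, did not. Of the 16, 8 (50%) were higher in the ovary and 6 (37.5%) in the testis, against 43.4% and 47.6% of all genes. Beyond 4-fold they were 5 (31.2%) and 3 (18.8%), against 16.4% and 25.4%. Without ovary library 4, 8 members were beyond 4-fold in the ovary. Immunoglobulin genes were higher in the ovary. AC160982.1, the IgA heavy chain gene Igha, was at 8.49, 6.48, 7.92 and 6.93 CPM in the ovaries and 0, 0.151, 0 and 0.0468 CPM in the testes (log2 -7.07, and -8.34 without testis library 2, resting on 1 count), and Igkc, a light chain, at 4.02 to 7.59 and 0.0508 to 0.202 CPM (log2 -5.23). Ighm, the IgM heavy chain, was at 10.1, 28.2, 7.63 and 8.46 CPM in the ovaries and 1.47, 2.47, 2.06 and 1.64 CPM in the testes (log2 -2.83, and -2.19 without ovary library 2). Pax5, the master factor of B cells, was at 0.0503, 0.152, 0.115 and 0.164 CPM in the ovaries and 9.998, 10.4, 10.7 and 9.08 CPM in the testes (log2 6.32, SE 0.225, adjusted p = 8.86e-12), higher in the testis, while Cd79b of the B cell receptor was higher in the ovary (log2 -3.52). The mast cell protease genes were low, with Cpa3 at 1.41 to 2.83 and 0.151 to 0.515 CPM (log2 -2.34) and Cma1 at 1.26 to 2.58 and 0 to 0.101 CPM (log2 -4.75). Of 7 mast cell members 6 were higher in the ovary, 3 beyond 4-fold, and 1 in the testis when ovary library 1 was left out.

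Interferon-stimulated genes stood lower in the testis: 29 of 32 were higher in the ovary, 26 beyond 4-fold, and 1 in the testis, or 2 without ovary library 2 (median -3.11). The summed levels were 724 to 875 CPM in the ovaries and 168 to 206 CPM in the testes. Igtp, an interferon-induced GTPase, was at 12.2, 12.1, 11.7 and 10.4 CPM in the ovaries and 1.17, 2.32, 0.735 and 1.12 CPM in the testes (log2 -3.12, SE 0.243, adjusted p = 6.53e-08). Ifit1, which binds foreign RNA, was at 5.35 to 11.1 and 0.281 to 1.07 CPM (log2 -3.66), and Isg15, a ubiquitin-like protein, at 1.20 to 2.88 and 0.245 to 0.328 CPM (log2 -2.84). The regulator Irf7 was at 6.87 to 12.7 CPM in the ovaries and 0.468 to 1.77 CPM in the testes (log2 -3.20). Bst2, tetherin, which holds budding virus at the membrane, was at 54.5 to 61.2 and 1.81 to 3.18 CPM (log2 -4.502). Oas2, an RNA-activated synthase, was at 6.63, 13.8, 3.16 and 2.95 CPM in the ovaries and 0, 0.706, 0 and 0.281 CPM in the testes. It had log2 -4.72, -4.08 without ovary library 2 and -5.98 without testis library 2. Dhx58, a regulator of the RIG-I sensors, was the exception, with 5.43, 7.39, 3.62 and 3.49 CPM in the ovaries and 65.6, 65.1, 62.0 and 66.4 CPM in the testes (log2 3.69, SE 0.192, adjusted p = 3.33e-08). The sensors Ddx58 and Ifih1 themselves were higher in the ovary (log2 -2.36 and -3.11).

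Of 28 genes of microbe sensing and complement 22 were higher in the ovary, 16 beyond 4-fold, and none in the testis, or 2 without ovary library 2 (median -2.64). Tlr4, the sensor of endotoxin, was at 32.2, 38.1, 29.9 and 28.2 CPM in the ovaries and 3.20, 1.66, 1.47 and 0.890 CPM in the testes (log2 -4.16, SE 0.277, adjusted p = 3.16e-07). Tlr3, the sensor of double-stranded RNA, was at 11.2 to 16.3 and 1.12 to 1.57 CPM (log2 -3.27). Myd88, the adaptor of Tlr4, was not called, at 28.8, 17.2, 15.8 and 18.4 CPM in the ovaries and 16.9, 15.4, 17.1 and 15.7 CPM in the testes (log2 -0.31), and was called with library totals (-1.11), with ubiquitous-gene scaling (-0.41) and without ovary library 3 (-0.40). C3, the central complement protein, was at 374, 1187, 618 and 619 CPM in the ovaries and 21.98, 18.8, 28.4 and 25.9 CPM in the testes (log2 -4.88, SE 0.429, adjusted p = 2.69e-05). Cxcl12, a chemokine of stromal cells, was at 161, 64.5, 47.8 and 61.0 CPM in the ovaries and 15.9, 14.4, 11.1 and 13.2 CPM in the testes (log2 -2.62), with ovary library 1 apart from the other ovaries.

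Markers of neighbouring tissues were read as a check on what each dissected organ held. Of 16 genes of the ovarian surface and oviduct epithelium, 14 were higher in the ovary, 11 beyond 4-fold, and Foxj1, of ciliated cells, in the testis (log2 1.41; median -5.60). Ovgp1, the oviduct's secreted glycoprotein, was at 2529, 1888, 2391 and 2366 CPM in the ovaries and 35.4, 22.6, 25.0 and 21.1 CPM in the testes (log2 -6.46, SE 0.207, adjusted p = 7.91e-09). Upk3b, of the mesothelial surface, was at 32.3 to 48.4 and 0.0504 to 1.57 CPM (log2 -5.74), and the keratin gene Krt7 at 25.8 to 83.0 and 0.0490 to 0.254 CPM (log2 -8.39). Epcam, of epithelial cells, was at 56.7, 89.9, 58.3 and 58.5 CPM in the ovaries and 51.4, 49.5, 50.4 and 52.0 CPM in the testes (log2 -0.37); its call was lost with RLE factors and DESeq2 (-0.25), limma-voom (-0.35), no filter (-0.35) and without any 1 testis library (-0.35 to -0.33). Among 16 epididymal genes 13 were too low to test, Crisp1, Lcn5 and Gpx5 with them. Rnase10 was at 0.0503 to 0.658 and 5.74 to 6.75 CPM (log2 4.22, and 4.82 without ovary library 2). Ros1, a receptor kinase, was at 0.0503 to 0.202 and 1.62 to 2.47 CPM, higher in every testis. Adam28, a surface protease, had the opposite order, with 2.67 to 3.62 CPM in the ovaries and 3 counts, all in testis library 1, a 86.2-fold (95% counting interval 29.2 to 421) difference.

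Adipocyte genes varied most among the ovaries. Of 14 tested members 11 were higher in the ovary and 3 in the testis (9 and 1 beyond 4-fold; 5 in the ovary without testis library 1 or 2, and 2 in the testis without ovary library 2), and Ucp1, of brown fat, was too low to test. Adipoq, adiponectin, was at 47.3, 169, 71.1 and 11.1 CPM in the ovaries and 13.4, 12.7, 16.2 and 12.7 CPM in the testes, with overlapping groups (log2 -2.44, and -1.64 without ovary library 2); its call was lost with limma-voom (-1.89), with the replicate block (-1.98), with all 16 libraries in the fit, and without any 1 testis library (-2.50 to -2.37). Plin1, of the lipid droplet, was at 27.8, 61.4, 30.1 and 12.6 CPM in the ovaries and 1.98, 0.908, 1.42 and 1.26 CPM in the testes (log2 -4.56). Fabp4, a fatty acid carrier, was at 66.2, 352, 145 and 14.6 CPM in the ovaries and 2.18, 0.656, 7.01 and 1.97 CPM in the testes. It had log2 -5.61, -4.66 without ovary library 2 and -6.45 without testis library 3, and was not called with limma-voom. Lipe, the hormone-sensitive lipase that Leydig and germ cells also use, was higher in the testis, with 33.6, 80.8, 32.7 and 20.9 CPM in the ovaries and 502, 526, 518 and 509.9 CPM in the testes (log2 3.61, SE 0.432, adjusted p = 1.60e-04). Hba-a1, a haemoglobin gene of red blood cells, was at 6.84, 13.2, 32.3 and 6.49 CPM in the ovaries and 4.26, 5.70, 7.50 and 4.82 CPM in the testes and was not called (log2 -1.39, and -0.67 without ovary library 3, the highest). It was called without ovary library 1 (-1.63) or 4 (-1.63) and under 6 other alternatives.

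The plot of ovary libraries shows how these markers differ among the ovaries. Library 2 had the highest levels of the plotted adipocyte and keratin genes and of Col1a1 and Col3a1. It had the lowest levels of the plotted oocyte genes, of Ovgp1 and of the surface and oviduct list's sum. Its Gdf9 was at 23.4 CPM, where the others were at 43.7 to 45.8 CPM. The ratio of highest to lowest ovary was 1.96 for Gdf9, 24.1 for Fabp4, 15.3 for Adipoq and 12.0 for Hsd17b7. Library 4 had the lowest Adipoq and library 1 the highest Hsd17b7, Star and Runx2. The adipocyte list summed to 316 to 1972 CPM in the ovaries and 699 to 750.0 CPM in the testes, and the surface and oviduct list to 2828 to 3195 CPM in the ovaries and 228 to 248 CPM in the testes. Lipe, which Leydig and germ cells also use, made up most of the testis sum of the adipocyte list. The part of fat, oviduct or luteal tissue in the ovarian values of the stromal, epithelial and steroid genes was not tested. Nor was it tested for the genes with the ovary's largest differences, such as Calb1, Ltf and Ehf. With any 1 library left out, 38 or 39 of the matrix genes and 19 or 20 of the fibroblast genes were called as higher in the ovary.

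**Figure D5:**
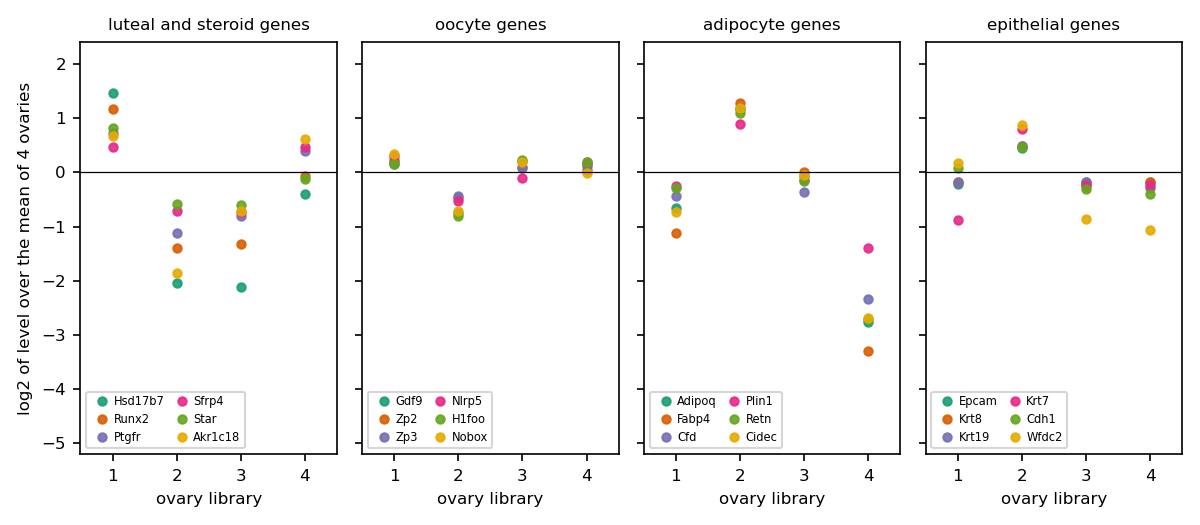
Level of 24 genes in each of the 4 ovary libraries (x axis), as log2 of the CPM over the mean of the 4 (y axis), in panels of luteal and steroid, oocyte, adipocyte and epithelial genes. Library 2 is low for all 6 oocyte genes and high for the adipocyte and epithelial genes shown, library 4 is low for the adipocyte genes, and library 1 is high for Hsd17b7. The genes were picked as ones whose level varies. The epithelial genes are part of the surface and oviduct list, whose summed level was lowest in library 2.

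Of 10 ubiquitous genes, often used for scaling, 5 (50%) were higher in the testis and 4 (40%) in the ovary. The shares of all genes were 47.6% and 43.4%, and no member was beyond 4-fold (median 0.12). With library totals as the scaling the median was -0.69 and 4 of the 5 reversed. Gpi1, a glycolytic enzyme, was at 134 to 153 CPM in the ovaries and 550.3 to 575 CPM in the testes (log2 1.95), and Vcp, an abundant ATPase, at 300.3 to 315 and 254 to 278 CPM (log2 -0.23).

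The 8 libraries of germ-free mice of the same strain share no sample with the conventional ones and repeat the contrast. There 9181 genes (46.0% of 19959 tested) were higher in the testis and 8564 (42.9%) higher in the ovary. Of 17876 genes called in conventional libraries and tested in germ-free ones, 17094 (95.6%) were called the same way and 0 the other way. Beyond 4-fold, 7613 of 8172 were called the same way, and 1 had the opposite sign. The tissue difference itself differed between conventional and germ-free libraries for 29 genes by the interaction test, none of them named here. Hsd3b6 had a log2 difference of 6.80 in germ-free libraries, Cyp11a1 -4.38, Aif1 6.70, Nlrp14 2.67, Timp2 2.67 and Dhx58 3.65, beside 7.36, -4.32, 6.66, 2.42, 2.69 and 3.69 in the conventional ones. Star was at -0.92 and Cyp17a1 at 0.12 there.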

How the data were processed

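Whole-organ RNA was sequenced after ribosomal RNA depletion from stranded total RNA libraries, per the labels' protocols. The authors deposited 1 table of raw counts per gene over exons, not normalized, with 38087 gene rows and 16 sample columns. The submitters' processing notes name STAR 2.4.0i, an aligner, and mm10 as the build. How reads were counted, with which annotation and whether by strand is not given in the sources used here, so overlapping and antisense genes may share reads. Libraries were grouped by their labels, and columns by their names. Chromosomes were assigned from the GRCm38 annotation for 36308 genes by identifier and 468 by symbol. The 34091 autosomal genes are reported, and 2685 genes on X or Y and 1311 unplaced ones are left aside, though the fit held genes of all classes (21231 tested).

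All p-values for single genes are two-sided and come from edgeR 4.0.16 (R 4.3.3; TMM scaling, filterByExpr with its defaults, robust quasi-likelihood fit on the 8 conventional libraries), with Benjamini-Hochberg adjustment over every tested gene and a threshold of 0.05. The 4-fold test was glmTreat with a log2 threshold of 2. A ratio against 1 to 3 counts has an exact binomial 95% interval; against 0 counts a floor of 3 counts over the group was used. Both cover counting error only. Alternatives were library totals, RLE and ubiquitous-gene scaling, 2 filters, limma-voom 3.58.1, DESeq2 1.42.0, thinned testis counts, all 16 libraries, the replicate block and each library left out. The fitting steps were tested on simulated data. Python 3.11.15 with pandas 2.3.3 and SciPy 1.17.1 made the tables, and RefSeq promoter windows were on GRCm38.p6.

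The 32 lists held 646 symbols, of which 645 were found, 21 under another name, and 3 lay on X or Y. The members and lists were chosen with earlier results of these data known. Genes named are the 10 largest in each direction among those beyond 4-fold with at least 50 CPM in the higher organ and no overlap, the 5 with the largest share of counts in each organ, chosen members of each list, and up to 3 further members in each direction with at least 5 CPM. In filling the 10, predicted or unnamed genes were passed over, 2 on the testis side and 4 on the ovary side. Outside this rule, and chosen after their values were seen, are Actg2, Amhr2, Avpr1a, Cd79b, Cx3cr1, Ddx58, Dnahc1, Foxj1, Adam28, Ros1, Gatm, Gpi1, Ifih1, Kif9, Mnd1, Nlrc5, Nppc, Piwil4, Prox1, Rab3il1, Rfx2, Rnf8, Col4a3, Tapbp, Fdps, Pmvk, Runx2, Tcp11, Tesk1, Vcp and Vwf. Some list members chosen to be named are not reported here. No pair of libraries of a group agreed within counting noise (chi-square per degree of freedom of 2.38 to 24.0).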

Additional observations from a re-analysis of the deposited data

Results flagged for a closer look

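In 30 of 423 groups of 4 libraries, each holding the values of 1 named gene in 1 organ, the highest or lowest library lay far from the other 3: its gap to the nearest one divided by the group's range exceeded Dixon's 95% critical value. Chance flags about 1 in 20 groups. No explanation of these values was tested. All levels are in CPM.

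Ovary library 2 stood apart in 12 groups. Ovary library 2 was highest for Pgr at 102 (nearest 58.6), Esr1 at 307 (nearest 234), Epcam at 89.9 (nearest 58.5) and Csf1r at 53.1 (nearest 41.3). Ovary library 2 was also highest for Ighm at 28.2 (nearest 10.1), Krt19 at 146 (nearest 92.0) and Dpt at 91.6 (nearest 59.6). Ovary library 2 was lowest for Prm1 at 0.0506 (nearest 0.201), Gdf9 at 23.4 (nearest 43.7), H1foo at 9.66 (nearest 18.9) and Nlrp14 at 34.1 (nearest 64.2). Ovary library 2 was also lowest for Slc25a31 at 0.455 (nearest 1.31).

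Ovary library 1 stood apart in 6 groups. Ovary library 1 was highest for Calb1 at 215 (nearest 94.3), Hao2 at 91.3 (nearest 53.2), Cxcl12 at 161 (nearest 64.5) and Sox8 at 1.46 (nearest 0.873). Ovary library 1 was lowest for Inhba at 92.5 (nearest 152) and Canx at 552 (nearest 585).

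Testis library 1 stood apart in 7 groups. Testis library 1 was highest for Sfrp4 at 0.914 (nearest 0), Ltf at 1.12 (nearest 0), Pgr at 0.254 (nearest 0) and Nr5a2 at 2.08 (nearest 0.490). Testis library 1 was also highest for Sycp1 at 401 (nearest 379), Krt18 at 0.863 (nearest 0.303) and Vcan at 4.62 (nearest 3.79).

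Testis library 2 stood apart in 3 groups. Testis library 2 was highest for Dhh at 16.4 (nearest 13.97) and Ifi44 at 0.404 (nearest 0.102). Testis library 2 was lowest for Cav1 at 11.0 (nearest 13.5).

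Testis library 4 was lowest for Tekt1 at 468 (nearest 502).

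Ovary library 4 was highest for Tnc at 568 (nearest 239).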

How the results depend on the processing

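The direction of the contrast for most named genes did not depend on the setting, and the balance of calls depended on the scaling. Under the alternatives run, 9509 testis-higher and 8668 ovary-higher genes became 9845 and 8204 with DESeq2, 9904 and 8274 with RLE factors, 7277 and 11237 with library totals, 9126 and 8945 with ubiquitous-gene scaling, 9565 and 8601 with limma-voom, 7316 and 6882 with a mean of at least 5 CPM, 11226 and 9629 without a filter, 8944 and 8528 with thinned testis counts, and 9593 and 8997 with all 16 libraries. An alternative added after the data were seen, with autosomal genes alone in the fit, gave 9412 and 8784. With single libraries left out the counts ran from 9296 to 9897 and from 8473 to 8879. Beyond 4-fold, 5077 and 3271 genes became 4028 and 5263 with library totals and 5021 and 2602 with DESeq2. With a log2 threshold of 1 they were 7062 and 5880, and with 3 they were 3751 and 1610. Single left-out libraries gave 4959 to 5327 and 3126 to 3409. The germ-free counts, 9181 and 8564, became 7001 and 11181 with library totals, 10845 and 9273 without a filter, and 9018 to 9204 and 8314 to 8499 with single libraries left out.

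The replicate block gave 9452 testis-higher and 8568 ovary-higher genes, 5057 and 3246 beyond 4-fold, and 9198 and 8395 in the germ-free libraries. Samples of the same number did not deviate together (correlations from -0.037 to 0.026), and 1 of 4 numbers correlated best with its own. The labels do not say whether the numbers pair the libraries. These correlations cannot decide it, since paired organs need not deviate in the same genes.

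The scaling moved the median of all genes by -0.81 (library totals), 0.12 (RLE) or -0.11 (ubiquitous genes). With library totals the signs of Sox9 (-0.39), Taf4b (-0.46), Cyp17a1 (-0.64), Dhh (-0.57), Clu (-0.026), Mrc1 (-0.73) and Calr (-0.62) were reversed, and so were the medians of the Leydig (-0.57), Sertoli (-0.21) and ubiquitous (-0.69) lists. Mrc1 was also reversed with ubiquitous-gene scaling (-0.022) and without ovary library 1 (-0.025), and its range over single left-out libraries was -0.025 to 0.26. Of 4365 values of 230 named genes under these alternatives, 4287 kept their direction and call, 47 of 13 genes lost the call, 22 of 7 genes gained it and 9 of 7 genes reversed. These counts cover genes of the naming rule; Avpr1a, Prox1, Tapbp, Fdps and Pmvk, named outside it, and some list members not named here were also reversed with library totals. The cause of these changes was not tested. Limma-voom ended the calls of Hsd17b7 (adjusted p = 0.063), Ptgfr (adjusted p = 0.056) and Fabp4 (adjusted p = 0.14). 7SK lost its call with DESeq2 or RLE factors (-0.04) and without testis library 1 (-0.11) or 4 (-0.12). With the 5 CPM filter fewer list members were tested, and the medians were 0.02 for spermatogonia, -4.03 for lymphocytes and 7.57 for germ line genes of both sexes; the epididymal list had no value. Ovary libraries held about 1 count per 0.05 to 0.06 CPM, so lower levels could not be seen.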
